A study of Danio rerio with 28 samples.

Results

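Among the cells sorted as mCherry+ from the livers of uninjured adult zebrafish were lymphocytes that carried the constant region of the T cell receptor delta chain (trdc) or the marker genes nuggc.1, nuggc.3 and ccl34b.4. A cell was taken as a member when it held at least 2 unique molecular identifiers (UMIs, each standing for 1 captured transcript) summed over these 4 marker genes and fewer than 3 UMIs summed over 4 ccl38 chemokine genes (ccl38.6, ccl38a.4, ccl38a.5 and ccl38.1), and when its barcode held more UMIs than the mean barcode of its library. This gave 258 members of 3673 called cells in the 3 libraries, with 90, 87 and 81 members in replicates 1, 2 and 3. They were described against 1640 other called cells that held at least 2 UMIs summed over the lymphocyte panel ccl36.1, il2rb, sla2, pbxip1b and tox2 (comparison cells). The remaining 1775 called cells met neither rule.

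Gamma-delta T cells assemble their antigen receptor from a gamma and a delta chain in place of the alpha and beta chains of conventional T cells. They develop in the thymus, are enriched in epithelial tissues and in the liver, and respond quickly through cytokines and cytotoxic granules, often without presentation by classical MHC molecules. The delta locus is rearranged by recombination, and a mature delta transcript joins a variable, a diversity and a joining segment to trdc. Nuggc of mammals is a nuclear GTPase first known from germinal center B cells, and ccl34b.4 belongs to a family of CC chemokines of fish.

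The study asked by single-cell RNA-Seq (Drop-Seq) how biliary epithelial cells (BECs) regenerate the liver after loss of hepatocytes, and it holds 28 libraries of 5000 barcodes each, with 25842 called cells in all. The fish behind the 3 libraries carried Tg(Tp1:CreERT2), which drives a tamoxifen-dependent Cre from a Notch-responsive element, Tg(-3.5ubb:LOXP-EGFP-LOXP-mCherry), a ubiquitous reporter that switches from EGFP to mCherry after Cre acts, and Tg(fabp10a:CFP-NTR), which places nitroreductase in hepatocytes. All were exposed to 4-hydroxytamoxifen as larvae, so that the mCherry+ gate was aimed at BECs and their descendants, and lymphocytes were not its target. The same genotype and gate gave the libraries of mock-treated animals (mock) and the libraries taken on the day of ablation with metronidazole (0 days postablation, dpa) and afterwards (1 dpa, 2 dpa, 3 dpa and 7 dpa), with 3 libraries in each of these groups. A single library held uninjured GFP+ cells of that genotype, and 6 libraries held all live nucleated cells of uninjured wild-type TU fish. The labels do not say whether libraries of a group came from different animals, so the p-values measure the spread between libraries, which may be technical in part.

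The 3 libraries held 1898455 to 2451652 UMIs, within the 926798 to 7296066 UMIs of the series. In these 3 libraries members were as deep as the cells they were set against. The median member held 1194, 1380 and 1290 UMIs in replicates 1 to 3, the median comparison cell 1232, 1315 and 1177.5. Other called cells reached 1057, 957 and 898, and the barcodes below the cell threshold 97, 76 and 80.5. Of 25777 distinct barcodes called as cells anywhere in the series, 53 occurred in more than 1 library, among them those of 2 members. In the uninjured TU libraries, replicate 5 stood apart with 260 comparison cells where the other 5 libraries held 16 to 54.

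The marker genes were sparse in each cell, and the label of gamma-delta T cells was borne out directly only in part. UMIs of trdc were found in 93 of the 258 members (31, 30 and 32 per library), which is 36.0% of members. It was found in 3.60% of comparison cells, 1.01% of other called cells and 0.194% of the barcodes below the threshold. The other 165 members had no trdc UMI and entered through nuggc.1, nuggc.3 or ccl34b.4, so the cells are called members here rather than gamma-delta T cells. UMIs of nuggc.1 were present in 53.5% of members against 4.57% of comparison cells, those of nuggc.3 in 46.5% against 3.72% and those of ccl34b.4 in 31.4% against 5.55%. These 4 differences were set by the rule and are given as a description.

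In the unit used from here on, UMIs of a gene for every 1000000 UMIs of the summed cells (CPM), members of the 3 libraries held trdc at 681, 460 and 600, nuggc.1 at 541, 447 and 458, nuggc.3 at 456, 381 and 358, and ccl34b.4 at 472, 519 and 467. The comparison cells held ccl34b.4 at 35.3, 48.6 and 37.6 CPM. The rule chose members by these 4 genes, so their levels in the 3 replicates are a description and no sign of agreement.

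Most members sat at the edge of the rule. At exactly 2 marker UMIs there were 146 members, at 3 there were 49 and at 4 or more there were 63, with 11 the highest sum. Just outside lay 300 called cells with a single marker UMI, and 31 called cells were kept out by their ccl38 UMIs alone. Across this edge si:dkeyp-85e10.3, a gene the rule did not use, stood at 137 CPM in the cells with 1 marker UMI, at 310 CPM in members with 2 marker UMIs, at 314 CPM with 3 and at 418 CPM with 4 or more. The joining segment trdj2 followed the same order at 15.5, 78.7, 144 and 271 CPM. As set out below, counts of both genes are not independent of the marker genes, so this order is no separate support for the rule. The levels of il7r (141, 221, 170 and 287 CPM), cxcr3.1 (122, 202, 249 and 197 CPM) and nuggc.2 (108, 128, 249 and 139 CPM) had no such steady order. Of the members, 57 held 1 or 2 ccl38 UMIs, and 18 had no UMI of the lymphocyte panel.

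**Figure D1:**
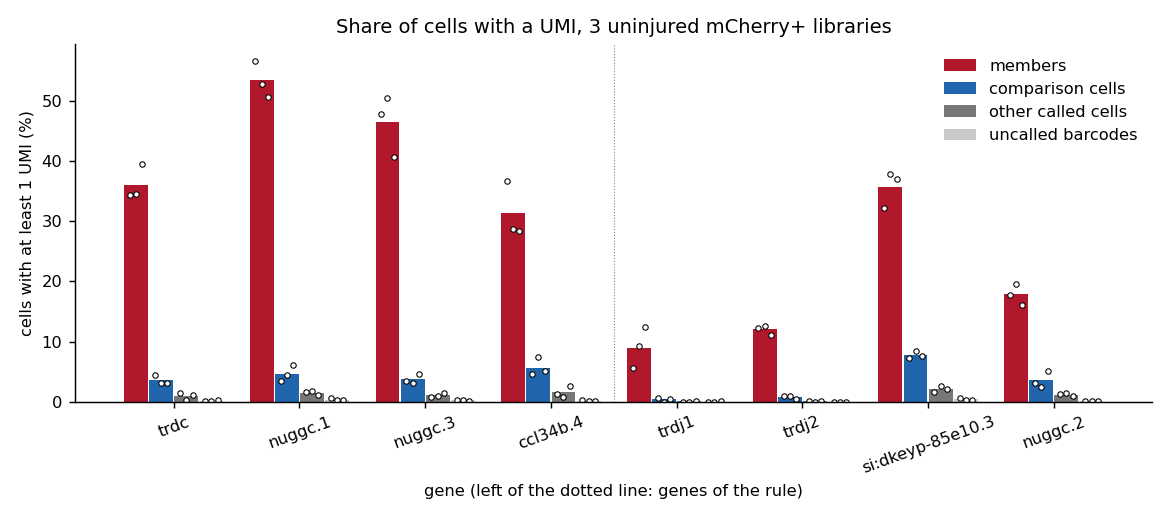
Share of cells with at least 1 UMI (y axis, percent) for the 4 marker genes of the rule, left of the dotted line, and for 4 genes outside it, over the 3 uninjured mCherry+ libraries. Bars are pooled shares and points are single libraries. UMIs of trdc are in 36.0% of members and 3.60% of comparison cells, and those of si:dkeyp-85e10.3 in 35.7% and 7.68%.

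The 4 markers fell into combinations that were far from even. The pair nuggc.1 and nuggc.3 without the others marked 69 members, ccl34b.4 alone marked 44, trdc alone 41 and nuggc.1 alone 20. All 4 markers were detected together in 2 members. Over all 3673 called cells, 45.0% of the 240 cells with nuggc.1 also had nuggc.3, against 5.45% of called cells in general. Of the 170 cells with trdc, 21.2% also had nuggc.1, against 6.53% of called cells, and 11.8% also had ccl34b.4, against 5.47%. The nuggc genes therefore shared cells with each other more often than with trdc. These shares are descriptions, since cells of a library share their depth and source.

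The joining segments trdj1 and trdj2 followed trdc. All 74 called cells with a UMI of either segment also had a trdc UMI, which is 43.5% of the trdc cells. Since a joining segment and trdc lie on the same mature transcript, these counts are not independent of the rule. Members held trdj2 at 178, 151 and 117 CPM and comparison cells at 7.06, 6.75 and 2.51 CPM. The genes of the alpha and beta constant regions and of the CD3 subunits did not appear under those names and are not analysed here, so whether members without trdc carried another receptor was not tested.

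The gene si:dkeyp-85e10.3, also outside the rule, followed the nuggc genes. It stood at 294, 355 and 383 CPM in members of the 3 replicates and at 53.4, 64.8 and 67.6 CPM in comparison cells. Of the 200 called cells with nuggc.3, 49.5% also had si:dkeyp-85e10.3, against 6.94% of called cells, and 37.0% also had nuggc.2, against 3.403%. Members held nuggc.2 at 193, 151 and 117 CPM and comparison cells at 21.2, 17.6 and 35.07 CPM, without overlap. In the RefSeq table of assembly GRCz12tu, nuggc.1, nuggc.2 and nuggc.3 lie on chromosome 19 and trdc on chromosome 2. The name si:dkeyp-85e10.3 comes from the same sequenced clone as an older name of nuggc.2, and no role is given for it. Reads could have been split between such near copies, so counts of si:dkeyp-85e10.3 and of the nuggc genes are uncertain and not independent of nuggc.1 and nuggc.3 in the rule.

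Split by the marker that was detected, the members differed among themselves. There were 93 members with trdc, 121 with nuggc.1 or nuggc.3 but no trdc, and 44 with ccl34b.4 alone. The level of si:dkeyp-85e10.3 was 290, 321 and 290 CPM in the trdc cells of the 3 libraries, 372, 514 and 616 CPM in the nuggc cells and 48.0, 97.3 and 50.8 CPM in the cells with ccl34b.4 alone. The last stood below the others in every library, with 2 values just under the 53.4 to 67.6 CPM of comparison cells and 1 above them.

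The cells with ccl34b.4 alone had higher levels of nkl.1 and gzma, each from few UMIs. NK-lysin nkl.1, an antimicrobial peptide of cytotoxic lymphocytes, was at 336, 97.3 and 406 CPM in them, from 18 UMIs in 7 cells, and at 6.57 CPM in the pooled trdc cells and 16.8 CPM in the pooled nuggc cells. Granzyme gzma, a serine protease that such granules deliver, was at 96.0, 227 and 102 CPM, from 11 UMIs in 9 cells, against 0 and 16.8 CPM. Of other genes of such granules, nkl.2, nkl.3, gzm3.4, prf1.1 and prf1.2 had no UMI in these 44 cells and at most 1 in either other set. Granzyme gzmk had 7 UMIs in the 44 cells (98.1 CPM, against 26.3 CPM in trdc cells and 61.8 CPM in nuggc cells). There were also 3 UMIs of nkl.4, 2 of gzm3.3 and 1 each of gzm3 and prf1.9 in these 44 cells. The chemokine receptor cxcr3.1 stood at 432, 292 and 356 CPM in these cells, above the 169, 152 and 252 CPM of the trdc cells. By contrast, the interleukin-7 receptor il7r, a survival receptor of T cells, was alike in the 3 sets at 230, 241 and 210 CPM. The transcription factor runx3, which directs cytotoxic T cell fates in mammals, was at 342, 421 and 168 CPM, and the pan-leukocyte phosphatase ptprc (CD45) at 1177, 966 and 1023 CPM.

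**Figure D2:**
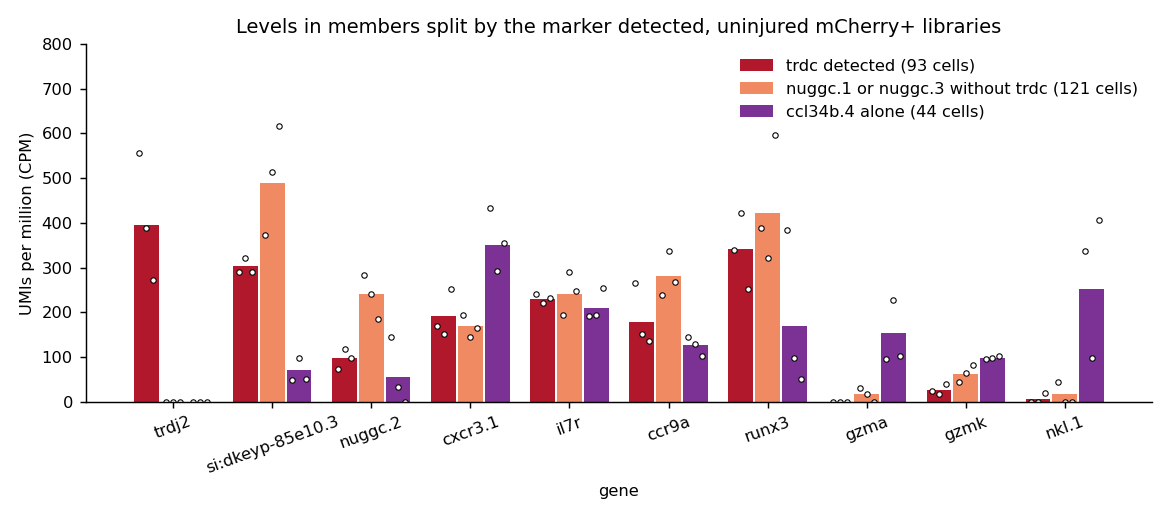
Level of 10 genes (y axis, CPM) in members split by the marker detected, over the 3 uninjured mCherry+ libraries. Bars are pooled levels and points are single libraries. Cells with ccl34b.4 alone have the highest nkl.1 level (252 CPM pooled) and the lowest si:dkeyp-85e10.3 level (48.0 to 97.3 CPM by library), and trdj2 is found in trdc cells only (394 CPM pooled).

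The same split was then read in 10 libraries that the rule had not used, each with at least 10 members (uninjured TU replicate 5 and all replicates of mock, 0 dpa and 2 dpa, 204 members in all). These libraries held 39 trdc cells, 92 nuggc cells and 73 cells with ccl34b.4 alone. Of these 39 trdc cells, 1 had nuggc.1 and 1 had nuggc.3. Of the 93 trdc cells in the uninjured mCherry+ libraries, 33 had nuggc.1 and 24 had nuggc.3. The overlap of trdc with the nuggc genes described above was thus nearly absent here. UMIs of ccl34b.4 were in 11 of the 39 trdc cells and in 17 of the 93. Of 67 UMIs of si:dkeyp-85e10.3 in members, 65 lay in the nuggc cells, at 522 CPM against 30.3 CPM in trdc cells and 10.1 CPM in cells with ccl34b.4 alone. Of 23 UMIs of nkl.1, 21 lay in cells with ccl34b.4 alone, spread over 14 cells of 7 libraries, at 213 CPM against 30.3 CPM and 8.04 CPM. The joining segment trdj2 was at 636 CPM in trdc cells, 8.04 CPM in nuggc cells and 0 CPM in cells with ccl34b.4 alone. In these libraries the trdc cells were below the si:dkeyp-85e10.3 level of the trdc cells in the uninjured mCherry+ libraries. The level of cxcr3.1 was 30.3 CPM in trdc cells, 153 CPM in nuggc cells and 162 CPM in cells with ccl34b.4 alone, so that the last were close to the nuggc cells. No test was made of these differences, which rest on few UMIs.

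Against the comparison cells of the same 3 libraries, members stood highest in the joining segment trdj2, in si:dkeyp-85e10.3 and in nuggc.2. Fold changes are log2 ratios of CPM after adding 10 CPM, given as the mean and SD over the 3 libraries, which understates changes of low genes. Of 927 genes at 100 CPM or more, 139 (15%) were higher in members in the sense that the 3 member values lay above all 3 comparison values, and 154 (16.6%) were lower, with a median log2 difference of 0.04. The members were picked from these cells, so these counts and levels are a description.

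After trdj2 (3.36), si:dkeyp-85e10.3 (2.30 ± 0.04) and nuggc.2 (2.25), the largest difference was that of cxcr3.1, a receptor for interferon-induced chemokines, at 224, 177 and 233 CPM in members and 104, 86.4 and 93.9 CPM in comparison cells (log2 difference 1.08). Next came fam49a (1.04), for which no role is given, and gnl3 (0.93), a nucleolar GTPase at 116, 184 and 133 CPM against 66.5, 72.9 and 70.14 CPM. The interleukin-7 receptor il7r was at 209, 243 and 242 CPM against 95.8, 117 and 158 CPM (0.87). The receptor ccr9a, whose mammalian counterpart guides T cells to thymus and gut, was at 232, 223 and 183 CPM against 125, 104 and 127 CPM (0.79). Only genes whose member and comparison values did not overlap over the 3 libraries were ranked, so all genes named in this ranking share that trait by choice. The other 7 of the 15 genes with the largest differences were si:dkey-11f4.20 (0.90), rrs1, si:ch73-208g10.1 and another clone-named gene (0.77 each), rc3h2 (0.74), osbpl3b and ccnl1b (0.68 each).

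Of the 10 genes with the lowest values, grn1, marco and c1qb were in the macrophage list. Levels of grn1, a granulin found in macrophages, were 23.2, 164 and 41.7 CPM in members and 260, 475 and 197 CPM in comparison cells (-2.17). The scavenger receptor marco was at 7.74, 46.0 and 0 CPM against 98.8, 150 and 72.7 CPM (-2.39), and the complement gene c1qb had a log2 difference of -1.92. Keratin krt18b was at -2.0, fabp11a at -2.39, selenop at -2.01, rasgef1ba at -2.12, zgc:174904 at -2.50, zgc:153911 at -2.30 and si:ch211-212k18.7 at -1.98.

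Markers of other cell types moved with this comparison, and their part in it was not tested. The summed level of 8 BEC markers ran from 2457 to 2700 CPM in members and from 6027 to 7489 CPM in comparison cells, and all 7 of them that reached 100 CPM were lower in members, among them the annexin anxa4 at 1199, 893 and 1142 CPM against 2478, 2552 and 3162 CPM. Summed macrophage markers ran from 77.4 to 585 CPM against 600 to 1272 CPM, and 3 of 4 at 100 CPM were lower. Summed hepatocyte markers ran from 458 to 804 CPM against 983 to 1033 CPM, and tfa (transferrin) was at 201, 191 and 117 CPM against 311, 216 and 319 CPM. At least 2 UMIs of 10 markers of these cells were found in 35.6%, 48.3% and 39.51% of members and in 43.2%, 51.9% and 40.3% of comparison cells. No B cell, thrombocyte or endothelial marker reached 100 CPM, and neutrophil and erythrocyte markers overlapped.

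**Figure D3:**
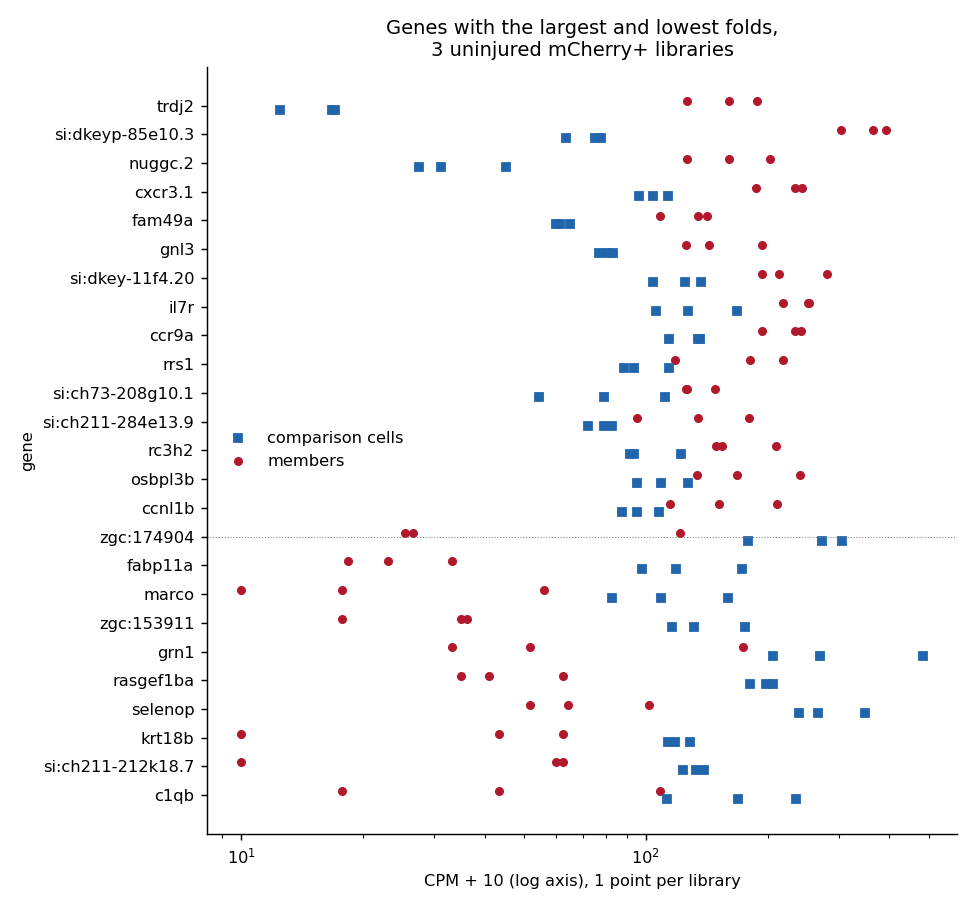
Levels (x axis, CPM + 10, log scale) of the 15 genes with the largest and, below the dotted line, the 10 with the lowest log2 difference between members and comparison cells. Only genes whose values did not overlap between members and comparison cells were ranked. Each point is 1 of the 3 uninjured mCherry+ libraries. The member values of trdj2, si:dkeyp-85e10.3 and nuggc.2 lie farthest from those of the comparison cells.

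For the lists that follow, the shares over all 927 genes were 15% higher and 16.6% lower. T cell receptor signalling genes were mixed. Of 7 at 100 CPM or more, 3 were higher and none lower, and these were ptprc at 1245, 966 and 967 CPM against 796, 818 and 774 CPM (0.40), the adaptor lcp2a (SLP-76) at 309, 204 and 258 CPM against 181, 162 and 185 CPM (0.51) and the kinase syk (0.61). The kinase zap70, which couples the receptor to signalling, was at 54.1, 46.0 and 100 CPM against 27.2, 21.6 and 32.6 CPM. The coreceptor cd4-1 was at 15.5, 46.0 and 41.7 CPM against 11.09, 9.45 and 15.03 CPM. Values of lck, cd247, cd8a, cd8b, cd28, itk and cd247l overlapped between members and comparison cells. Within members, cd8a had 0 UMIs in trdc cells, 9 in nuggc cells and 0 in cells with ccl34b.4 alone. In the same order, cd8b had 0, 7 and 0 UMIs, cd28 2, 14 and 1, and cd4-1 4, 9 and 1, whereas lck had 5, 2 and 1. In the 10 libraries that the rule did not use, cd8a had 0, 1 and 0 UMIs and cd8b 1, 1 and 1. Most of these genes were at a few UMIs per library, so a difference would often not have been detectable at this depth.

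Of 4 cytotoxic genes at 100 CPM, 3 were higher and none lower. The proteoglycan srgn, on which granule proteins are stored, was at 1617, 1406 and 1425 CPM against 1009, 1024 and 948 CPM (0.57), the vesicle tether sytl3 at 193, 145 and 192 CPM against 116, 126 and 138 CPM (0.44), and stx11a, a syntaxin of granule release, had a difference of 0.33. Granzyme gzmk was at 46.4, 52.6 and 66.7 CPM against 14.1, 17.6 and 38.8 CPM. The NK-lysin gene nkl.3 had no UMI in members and stood at 18.2, 25.7 and 16.3 CPM in comparison cells. This was at least 2.64-fold higher when members are given 3 UMIs over the group. Of the comparison cells, 192 held at least 3 ccl38 UMIs, which the rule barred from members. The part of those cells in the nkl.3 difference was not tested. Cells with an nkl.3 UMI were 0 of 258 members, which allows up to 1.16% of cells with a UMI (counting error only) and sets no limit on cells that express the gene, since at these levels a cell would seldom show a UMI. Values of nkl.1 and gzma overlapped.

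Antigen presentation genes moved both ways. The class I heavy chain mhc1uba was at 2375, 2069 and 2066 CPM in members against 1570, 1453 and 1522 CPM (0.51), and beta-2 microglobulin b2m, its light chain, was at 1988, 1905 and 1900 CPM against 1579, 1487 and 1566 CPM (0.32). The class II invariant chain cd74a was at 1849, 2785 and 2108 CPM against 4272, 4993 and 3463 CPM (-0.92), and the class II genes mhc2a (-0.74) and mhc2dab (-0.41) were lower too. Over the 11 genes of the list at 100 CPM, 5 were higher and 4 lower, and the class I gene mhc1zda was among the lower. Class II genes are those of macrophages, dendritic cells and B cells, whose markers were described above.

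Of 6 chemokine and receptor genes at 100 CPM, 2 were higher and 2 lower. The ligand ccl35.1 was at 217, 361 and 417 CPM in members and 1123, 1195 and 985 CPM in comparison cells (-1.75), and ccl35.2 had a difference of -1.69, whereas cxcr3.1 and ccr9a were the 2 higher genes. The alpha E integrin itgae.1, whose mammalian counterpart binds E-cadherin on epithelium, was at 7.74, 46.0 and 16.7 CPM against 115, 127 and 58.9 CPM (-1.83). The signalling adaptor traf1 (0.61) and the apoptosis inhibitor birc2 (0.56) were 2 of 3 higher genes among 12 of the TNF receptor list, with mcl1b, also an inhibitor of apoptosis, lower. Of 12 lymphocyte transcription factors, bhlhe40, foxo1a, id3 and rel were higher and none lower, while runx3 overlapped (371, 315 and 358 CPM against 343, 373 and 392 CPM). Of 30 immediate-early and heat shock genes, 10 were lower, among them jun (-0.72) and fosab (-0.40), and 2 higher.

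Of the remaining lists, 11 of 79 genes with ribosomal protein symbols were higher and none lower, a share near that over all genes, and none of 7 mitochondrially encoded genes was higher or lower. In the cell cycle list tubb2b was the 1 higher gene of 6, also near the share over all genes. The cytokine il34 was the 1 higher of 3 cytokines, il7r the 1 higher of 2 cytokine receptors, and b2m, epsti1 and nuggc.2 were 3 higher of 5 NUGGC, GIMAP and interferon genes, with stat1a lower. In the adhesion list, 4 of 13 were higher (arhgdig, pfn1, rac2 and wasb) and 4 lower (cd9b, fermt3b, itgae.1 and tmsb4x).

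The rule was next applied to the 10 libraries it had not used, to test which of these differences held in other libraries and treatments. Those libraries held 204 members and 1548 comparison cells. Member sums ran from 12181 to 57115 UMIs, far below the 120016 to 152234 of the uninjured mCherry+ libraries. In mock replicates 1 to 3 the median member held 625, 536 and 492.5 UMIs and the median comparison cell 550, 592 and 541. At 2 dpa members were shallower, at 1239.5, 989.5 and 1401 UMIs against 1397, 1845.5 and 2737. Sums of members and of comparison cells were compared within library by edgeR's quasi-likelihood test, without the 13 genes of the rule and with Benjamini-Hochberg adjustment over all genes tested. Of 655 genes, 21 (3.21%) were higher and 38 (5.80%) lower in members at an adjusted p under 0.05, and 178 were under 0.05 unadjusted, with a median log2 difference of -0.09.

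Of the 25 genes named above, only ccr9a, si:dkey-11f4.20, zgc:174904, zgc:153911 and grn1 had counts high enough for this test. The macrophage gene grn1 was lower by it (log2 difference -1.50 ± 0.38 SE, adjusted p = 0.0149, lower in 9 of 10 libraries), and zgc:174904 was lower too (-1.33, adjusted p = 0.0424). The differences of ccr9a (0.56, adjusted p = 0.467), si:dkey-11f4.20 (0.29, adjusted p = 0.679) and zgc:153911 (-1.24, adjusted p = 0.0751) did not pass.

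Because this filter removed most of the genes of interest, the fit was repeated with every gene that had at least 20 UMIs over all sums, a choice made after seeing the data. Of 7857 genes, 49 (0.624%) were then higher and 71 (0.904%) lower, and 1223 were under 0.05 unadjusted. The gene si:dkeyp-85e10.3 was higher in members in 9 of 10 libraries. Its level in members had a lowest value of 0, a median of 377 and a highest value of 985 CPM over the 10 libraries, and in comparison cells 0, 19.1 and 104 CPM (log2 difference 3.1 ± 0.40 SE, edgeR adjusted p = 2.3e-11, 67 UMIs against 74). The call held in all 10 fits that left out a library. The other member of that family, nuggc.2, was at 0, 83.1 and 252 CPM against 0, 15.8 and 33.2 CPM, higher in 7 of 10 libraries (2.1 ± 0.55 SE, adjusted p = 0.0157). Its call was lost without uninjured TU replicate 5 (adjusted p = 0.175), mock replicate 1 (adjusted p = 0.0894) or mock replicate 3 (adjusted p = 0.0911).

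The joining segment trdj2 was at 0, 44.4 and 631 CPM in members and 0, 1.298 and 14.9 CPM in comparison cells (4.47 ± 0.66 SE, adjusted p = 9.5e-09), and trdj1 had a difference of 3.03 (adjusted p = 4.3e-04). As said, both go with trdc, and si:dkeyp-85e10.3 and nuggc.2 go with the other nuggc genes. The receptors cxcr3.1 (1.17, adjusted p = 0.142) and il7r (1.11, adjusted p = 0.172) were each higher in 8 of 10 libraries and did not pass, and neither did ccr9a (0.53, adjusted p = 0.598).

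**Figure D4:**
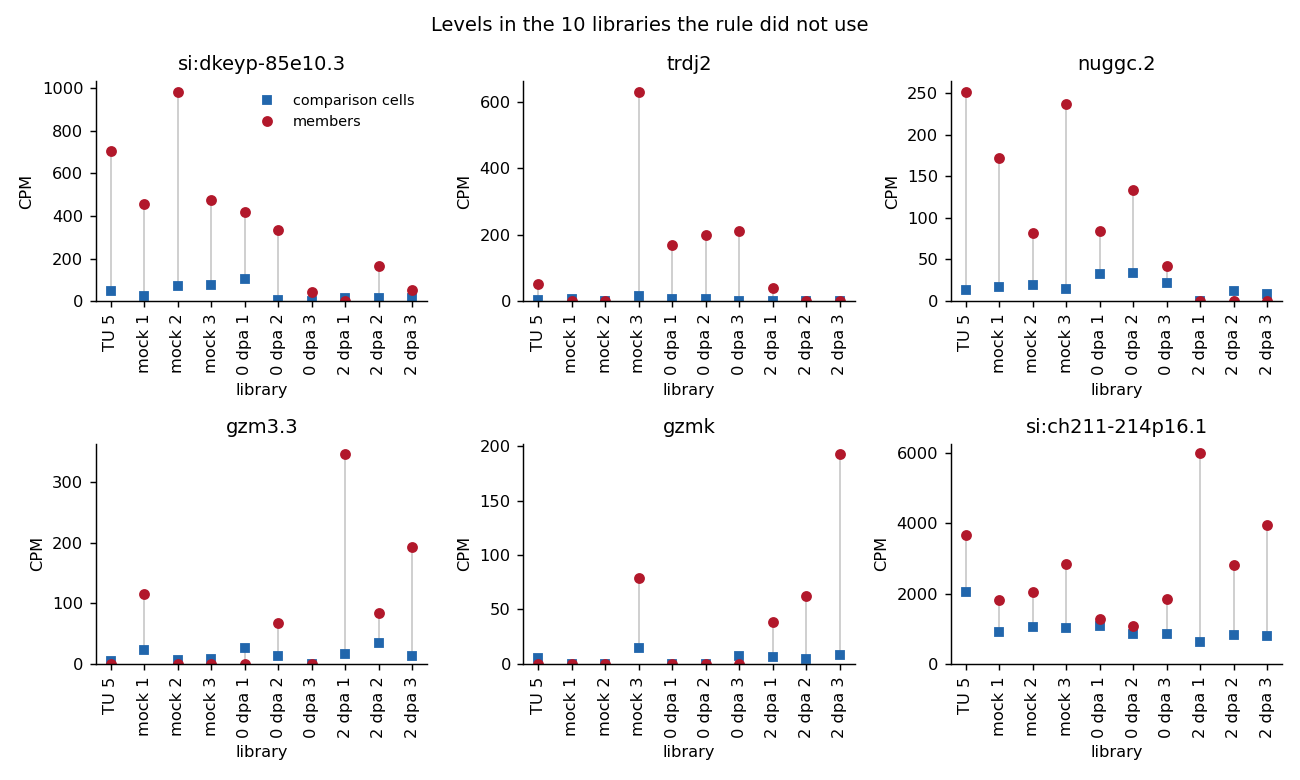
Levels (y axes, CPM) of 6 genes in members and comparison cells of the 10 libraries that the rule did not use (x axes), joined by a line within each library. For si:dkeyp-85e10.3 the members are above the comparison cells in 9 of 10 libraries, and the highest values of gzm3.3 and gzmk are in 2 dpa libraries.

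Granzyme genes, proteases that cytotoxic lymphocytes release into their targets, were also higher in members, 5 of them, from few UMIs. The difference was 3.22 for gzm3 (adjusted p = 1.3e-04), 2.26 for gzm3.3 (adjusted p = 0.00701), 2.65 for gzma (adjusted p = 0.00713), 2.80 for gzmk (adjusted p = 0.00600) and 3.45 for gzm3.4. Most of their member UMIs came from the 2 dpa libraries, with 13 of 17 for gzm3, 24 of 27 for gzm3.3, 11 of 14 for gzma and 15 of 16 for gzmk, and 11 of 13 UMIs of gzm3.4 lay in 1 cell. Interferon gamma (ifng1) rose by the same test (2.38, adjusted p = 0.00765), with 16 of 21 UMIs at 2 dpa, as did the T lineage factor bcl11ba (2.34, adjusted p = 0.0212). Split into trdc cells, nuggc cells and cells with ccl34b.4 alone, member UMIs were 0, 3 and 11 for gzma and 1, 3 and 12 for gzmk. They were 0, 2 and 11 for gzm3.4 and 3, 7 and 11 for ifng1. Levels in the 3 sets were closer for gzm3 (60.6, 56.3 and 81.2 CPM) and gzm3.3 (121, 88.4 and 122 CPM). Without 1 of the 2 dpa libraries the adjusted p became 0.174 (replicate 1) or 0.227 (replicate 3) for gzm3.3, 0.0614 for gzma and 0.0637 for gzmk (replicate 2 for both), 0.205 for ifng1 (replicate 1) and 0.0645, 0.0577 and 0.0524 for bcl11ba (replicates 1 to 3), and bcl11ba was also lost without uninjured TU replicate 5 (0.164). The cytotoxic list counted 6 higher of 15 tested with srgn, and none lower. The T cell genes zap70 (1.68, adjusted p = 0.151), lck (1.83, adjusted p = 0.161), cd247 (1.52, adjusted p = 0.224), cd28 (0.71, adjusted p = 0.677), cd4-1 (0.27, adjusted p = 0.934) and itk (0.25, adjusted p = 0.908) did not pass, and none of 27 genes of that list did. Neither did nkl.1 (1.16, adjusted p = 0.218) or nkl.4 (-1.48, adjusted p = 0.500), and nkl.3 was at 0 UMIs in members against 49 in comparison cells (at least 1.87-fold higher in the latter on 3 UMIs over the group, adjusted p = 0.0529). Counts of cd8a, cd8b, cd247l, nkl.2, prf1.1, prf1.2, prf1.9 and trac were below the filter or not in the files.

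Among abundant genes, si:ch211-214p16.1, for which no role is given, was higher in members in 10 of 10 libraries. Its level had a lowest value of 1068, a median of 2428 and a highest value of 5994 CPM in members and 607, 875 and 2030 CPM in comparison cells (1.31 ± 0.21 SE, edgeR adjusted p = 3.3e-04). Of its 773 member UMIs, 517 came from the 2 dpa libraries. Its difference was larger at 2 dpa than in mock (edgeR interaction term 1.21 ± 0.34 SE, adjusted p = 0.0294). Against comparison cells with at least 3 ccl38 UMIs its direction reversed, as given in the closing sections. Serglycin srgn was at 498, 1250 and 1887 CPM against 179, 866 and 1324 CPM, higher in 9 of 10 libraries (0.82 ± 0.22 SE, adjusted p = 0.0189). The interferon-inducible gene epsti1 was at 0, 400 and 1221 CPM against 33.7, 116 and 390 CPM, higher in 8 of 10 (1.42 ± 0.37 SE, adjusted p = 0.0179). The transcriptional inhibitor id3 (0.97, adjusted p = 0.0347), the NF-kappa-B inhibitor nfkbiaa (0.68, adjusted p = 0.0149) and the chaperones hsp90aa1.2 (0.55, adjusted p = 0.00548), hsp90aa1.1, hsp70.1, hsp70.3 and hsp70l were higher as well. In all, 6 of 30 genes of the heat shock and immediate-early list were higher and none lower. In the uninjured mCherry+ libraries that list went the other way, with 10 of 30 lower and 2 higher (dusp2 and hspd1). There hsp70l was at 29208, 21355 and 24180 CPM in members against 27226, 27801 and 25881 CPM in comparison cells. Values of hsp90aa1.2 overlapped there too. None of 11 antigen presentation genes and none of 8 genes of the TNF receptor list was called in either direction, nor was any of 19 and 15 with the 20-UMI filter. Leaving out 1 library ended the call of srgn without mock replicate 1 (adjusted p = 0.0502), mock replicate 2 (0.0698) or 2 dpa replicate 3 (0.066), that of epsti1 without 0 dpa replicate 1 (0.0607), mock replicate 2 (0.0557) or 0 dpa replicate 3 (0.0798), that of hsp90aa1.2 without mock replicate 2 (0.0509), that of nfkbiaa without uninjured TU replicate 5 (0.0539) or 2 dpa replicate 3 (0.064), and that of id3 without any 1 of 8 libraries (0.0539 to 0.125).

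Among the 38 genes lower in members in the libraries not used by the rule were markers of other cell types. All 6 BEC markers tested were lower, among them anxa4 at 66.7, 335 and 1204 CPM against 240, 940 and 3742 CPM (lowest, median and highest, log2 difference -1.90 ± 0.25 SE, adjusted p = 4.9e-05), krt8 (-1.48, adjusted p = 0.00548) and epcam (-1.73, adjusted p = 0.0149). The hepatocyte genes apoa2 (-1.76, adjusted p = 0.00644) and tfa (-1.47, adjusted p = 0.0149) were lower, and 5 of 10 mitochondrially encoded genes were lower. The chemokine ccl35.1 was at 0, 142 and 334 CPM in members against 47.4, 777 and 1175 CPM, lower in 9 of 10 libraries (-1.97 ± 0.42 SE, adjusted p = 0.00548). Over the 8 BEC markers the summed level was lower in members in 10 of 10 libraries, with medians of 1136 and 2865 CPM. At least 2 UMIs of the 10 markers of other cells were found in 3.85% to 65.2% of members and in 11.6% to 76.7% of comparison cells of these libraries.

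Many of these calls changed with the choice of comparison cells. The panel gene pbxip1b, found in 24.7% of other called cells, was detected in 1542 of the 1640 comparison cells of the uninjured mCherry+ libraries. The rule set part of this gap, since other called cells held fewer than 2 panel UMIs. When the panel was used without pbxip1b, a choice made after seeing the data, edgeR called 0 of 285 genes higher (0%) and 0 lower (0%), with 23 under 0.05 unadjusted. With the 20-UMI filter it called 9 of 3604 higher (0.250%) and 12 lower (0.333%). Among these were si:dkeyp-85e10.3 (2.53 ± 0.44 SE, adjusted p = 9.5e-06) and trdj2 (4.45, adjusted p = 6.2e-04), both higher, nkl.3 (adjusted p = 0.00306), lower, and the hepatocyte genes apoa2 (-1.47) and tfa (-1.36), lower. As said, si:dkeyp-85e10.3 and trdj2 are not independent of the marker genes, so their calls are no separate support for the rule. The calls of nuggc.2 (2.26, adjusted p = 0.250), of the granzymes, of srgn, of the heat shock genes and of the BEC markers were lost. The number of calls in the 655-gene fit also rested on single libraries, with 35 of 59 left without uninjured TU replicate 5, 19 without mock replicate 2, 37 without 0 dpa replicate 3 and 27 without 2 dpa replicate 3. In the fit with the 20-UMI filter, 60 of 120 were called without 2 dpa replicate 3.

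Members were then compared between treatments, at first after ablation. At 0 dpa, when hepatocytes had just been lost, members held less ins, vtg1 and apoc1 than those of mock, and so did the comparison cells. Over sums of the 3 uninjured mCherry+, 3 mock and 3 0 dpa libraries, edgeR called 3 of 270 genes higher (1.11%) and 9 lower (3.33%) at 0 dpa than in mock, with 46 under 0.05 unadjusted. With library size alone as scaling the split was 1 higher and 12 lower, and the median of all genes moved from 0.02 to -0.09.

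In members, 3 genes rose at 0 dpa. Ferritin fthl27 was at 1137, 1869 and 1096 CPM at 0 dpa and 457, 164 and 315 CPM in mock (2.14 ± 0.41 SE, adjusted p = 0.00199). It was at 1611, 1837 and 1720 CPM against 1501, 902 and 848 CPM in comparison cells of the same libraries. Uninjured members held fthl27 at 1323, 1688 and 1600 CPM, also above mock. The interferon-inducible epsti1 was at 1221, 400 and 674 CPM against 400, 82.1 and 0 CPM (2.21 ± 0.61 SE, adjusted p = 0.0367), and b2ml at 716, 1135 and 1180 CPM against 343, 246 and 631 CPM (1.43, adjusted p = 0.0489). None of the 3 overlapped between the groups in members, although the lowest 0 dpa value of epsti1 (400.45 CPM) lay beside the highest mock value (400.18 CPM). In comparison cells epsti1 was at 383, 159 and 166 CPM against 106, 59.7 and 126 CPM. There b2ml was at 740, 835 and 885 CPM against 670, 710 and 632 CPM. All 3 genes thus rose without overlap in comparison cells too. The call of epsti1 was lost when 1 of 5 libraries was left out (uninjured mCherry+ replicate 3, 0 dpa replicates 1 and 3, mock replicates 2 and 3, adjusted p = 0.0515 to 0.155). That of b2ml was lost in 6 of 9 such fits. With library size alone as scaling neither passed (adjusted p = 0.071 for both), and b2ml did not pass with DESeq2 size factors either (adjusted p = 0.0512).

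The 9 lower genes included ins, made in the pancreas, and vtg1, vtg5 and apoc1, made in hepatocytes. Insulin (ins), a hormone of islet beta cells, had 0 UMIs in members of all 3 libraries at 0 dpa and stood at 743, 1642 and 1104 CPM in mock, at least 23.1-fold higher in mock on a floor of 3 UMIs over the group. In comparison cells it was at 0, 0 and 7.20 CPM against 675, 16934 and 18410 CPM. The yolk precursor vtg1 was at 210, 66.7 and 169 CPM against 2858, 2545 and 3311 CPM in members (-4.08 ± 0.38 SE, adjusted p = 1.3e-07) and at 299, 179 and 223 CPM against 2539, 3849 and 3331 CPM in comparison cells. The gene listed as GPT was at 0, 133 and 84.3 CPM against 1143, 24546 and 552 CPM (adjusted p = 0.00199), a call lost without 0 dpa replicate 3 (adjusted p = 0.0515), and at 175, 252 and 641 CPM against 8801, 11108 and 4848 CPM in comparison cells. These 3 genes moved with the same genes in the cells beside them, and the part of free or foreign RNA in their levels was not tested. The genes vtg5 (-4.05), apoc1 (-3.40), CR388047.3 (-2.91) and hmgb1a (-2.38), a chromatin protein, were likewise lower without overlap in both kinds of cells.

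In contrast, stip1 and cebpb were lower at 0 dpa in members, while their values in comparison cells overlapped between 0 dpa and mock. The cochaperone stip1, which links heat shock proteins, was at 2357, 2202 and 2360 CPM at 0 dpa and 4002, 7471 and 5124 CPM in mock members (-1.17 ± 0.28 SE, edgeR adjusted p = 0.0152). In comparison cells it was at 3617, 3189 and 3570 CPM against 3672, 2886 and 3837 CPM. The transcription factor cebpb was at 379, 1068 and 759 CPM against 1715, 2709 and 2286 CPM in members (-1.55 ± 0.35 SE, adjusted p = 0.00973) and at 1026, 1041 and 1180 CPM against 1362, 1108 and 1457 CPM in comparison cells. The difference of members from comparison cells was not shown to change between 0 dpa and mock for either gene (edgeR interaction term -1.11 ± 0.31 SE for stip1 and -1.27 ± 0.41 SE for cebpb, adjusted p = 0.459 for both). The call of stip1 was lost without mock replicate 2 (-0.75, adjusted p = 0.125) or 0 dpa replicate 3 (adjusted p = 0.0672), and that of cebpb without 0 dpa replicate 1 (0.0554), mock replicate 2 (0.1) or 0 dpa replicate 3 (0.0515). Both genes were also lost when cells were thinned to 400 UMIs (adjusted p = 0.504 and 0.318). In uninjured members stip1 was at 2127, 2089 and 2125 CPM and cebpb at 804, 887 and 658 CPM. Mock members stood above these too (log2 difference 1.54 for stip1 and 1.61 for cebpb, edgeR adjusted p = 3.9e-04 for each). In comparison cells mock stood above uninjured as well, for stip1 at 3672, 2886 and 3837 CPM against 2404, 2151 and 2231 CPM. For cebpb these values were 1362, 1108 and 1457 CPM against 648, 697 and 676 CPM. What set the mock values apart was not tested. The gene si:dkeyp-85e10.3 (-1.16 ± 0.61 SE, adjusted p = 0.312) was not called, and at 421, 334 and 42.1 CPM against 457, 985 and 473 CPM its values did not overlap. The marker genes chose the members in both groups. They stayed in the fit and none was called, and their levels among members are not read as a result.

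Members of mock animals were set against those of uninjured fish in the same fit, so that this comparison and the last share the mock libraries. Of 270 genes, 30 (11%) were higher and 13 (4.81%) lower in mock, with 81 under 0.05 unadjusted, and the same vtg1 (2858, 2545 and 3311 CPM against 387, 309 and 283 CPM, log2 difference 3.26, adjusted p = 6e-09) and apoc1, an apolipoprotein (800, 903 and 1104 CPM against 108, 59.1 and 117 CPM, 3.4, adjusted p = 1.6e-05), led the higher genes. The call of GPT (5.03, adjusted p = 3.9e-04) overlapped between the groups and was lost without mock replicate 2 (1.46, adjusted p = 0.117). Of 19 immediate-early and heat shock genes, 6 were higher in mock, among them hsp90aa1.2 (0.96) and hsp70l (0.82), and 2 lower. Lower in mock were fthl27 at 457, 164 and 315 CPM against 1323, 1688 and 1600 CPM (-2.11 ± 0.37 SE), CR383676.3 at 629, 821 and 1577 CPM against 3991, 3876 and 3708 CPM (-1.85) and the translation factor eef1b2 at 114, 164 and 236 CPM against 565, 749 and 575 CPM (-1.80). The call of eef1b2 was lost without uninjured mCherry+ replicate 2 (adjusted p = 0.0666) or mock replicate 1 (adjusted p = 0.119). The class I gene mhc1uba was at 686, 657 and 394 CPM against 2375, 2069 and 2066 CPM in members (-1.78) and at 636, 524 and 625 CPM against 1570, 1453 and 1522 CPM in comparison cells. In comparison cells vtg1 was at 2539, 3849 and 3331 CPM against 565, 359 and 288 CPM. There CR383676.3 was at 993, 909 and 1227 CPM against 3579, 3952 and 3516 CPM. Values of apoc1, hsp90aa1.2, hsp70l and eef1b2 also moved the same way in comparison cells, without overlap, whereas those of fthl27 overlapped. These changes are thus shared with the cells beside the members, and their source was not tested.

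The fits between treatments kept the genes of the rule, so their counts of calls include them. The lower genes in mock included pbxip1b of the lymphocyte panel (-1.46). The 30 higher genes included nuggc.1 and ccl34b.4, which chose the members and are given as values only. In mock members nuggc.1 was at 972, 1314 and 1025 CPM and ccl34b.4 at 1029, 1314 and 2286 CPM, above the uninjured levels given at the start. A member needed 2 marker UMIs at any depth, and the median member held 492.5 to 625 UMIs in the mock libraries against 1194 to 1380 in the uninjured ones. These CPM values therefore moved with the depth of the cells, whose part was not tested.

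The share of members among members and comparison cells was 12.05%, 16.05% and 13.3% in the uninjured mCherry+ libraries (13.8% ± 2.05, SD, n = 3). It was 10.48%, 9.69% and 10.53% in mock (10.2% ± 0.468) and 13.1%, 8.74% and 11.5% at 0 dpa (11.13% ± 2.22). Between 0 dpa and mock the difference was 0.896 percentage points (two-sided exact permutation test, p = 0.5), within the spread of the libraries. Between mock and uninjured it was -3.57 points (exact permutation p = 0.1), without overlap, and 0.1 is the smallest p that 3 libraries against 3 can give. Cells with at least 400 UMIs were then thinned to 400 before the rule was applied, and shallower cells were left out. The difference of mock from uninjured turned to 1.92 points (exact permutation p = 0.4), and at 250 UMIs to 5.02 points (exact permutation p = 0.1). Of the 24, 19 and 22 mock members, 21, 11 and 14 held 400 UMIs, and all uninjured members did. The order of these groups thus changed with depth and with the cells kept, whose separate parts were not tested. At 2 dpa the share was 20.5% ± 4.84, in TU fish 5.52% ± 5.80 (n = 6), at 1 dpa 7.00% ± 2.70, at 3 dpa 7.71% ± 3.53 and at 7 dpa 4.17% ± 7.22, from 0 to 23 members a library. No member was found among 17 such cells of the GFP+ library.

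**Figure D5:**
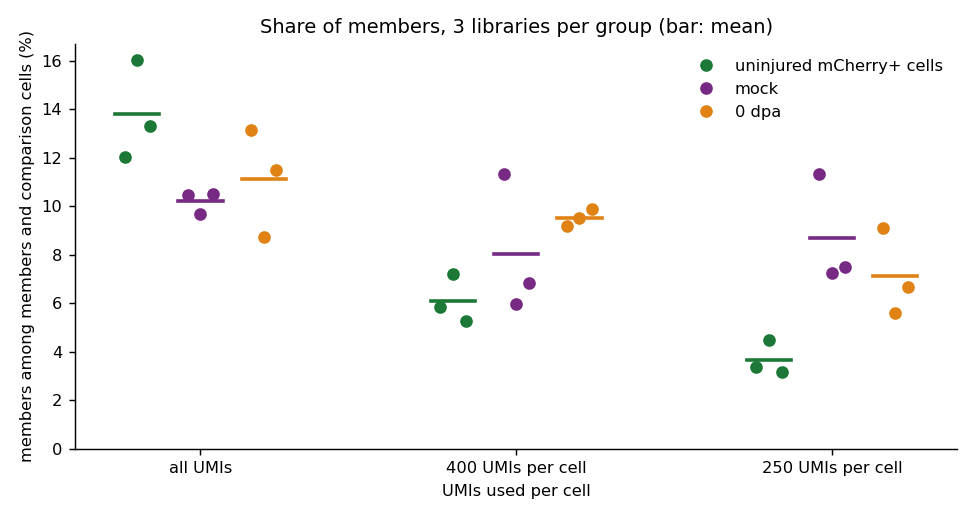
Share of members among members and comparison cells (y axis, percent) in uninjured mCherry+, mock and 0 dpa libraries. The x axis gives all UMIs or cells thinned to 400 or 250 UMIs, with cells below that depth left out. Points are libraries and lines are means of 3. The uninjured mean is the highest with all UMIs (13.8%) and the lowest after thinning (6.11% at 400 and 3.68% at 250 UMIs).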

How the data were processed

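Live nucleated liver cells were sorted, sequenced by Drop-Seq and mapped by the authors to GRCz11 with STAR 2.5.3 (FastQC 0.11.2). The files used are the deposited counts, whole UMIs per gene and barcode, 5000 barcodes a library, before the background subtraction the authors describe. A single UMI is 1 molecule, and intervals and floors cover counting error only. No doublets were called and no background was subtracted here. Wherever cells were thinned, those below the thinning depth were left out. Cells above their library's mean UMI total were taken as called cells and summed by library and role where a library had at least 10 cells of each, and CPM divides by the UMIs of the sum. Tests used edgeR 4.0.16 (limma 3.58.1, R 4.3.3) with TMM, the default expression filter and, for members against comparison cells, a library term. DESeq2 1.42.0 was an alternative. Levels used Python 3.11.15 with numpy 2.4.6, pandas 2.3.3 and scipy 1.17.1. The edgeR fits were tried on simulated counts with known changes. For members against comparison cells, 47% of simulated log2 changes of 1 and 98.8% of those of 2 were recovered. With the 20-UMI filter, 2.17% and 39.6% were. Members and 22 gene lists were chosen with earlier results of these data known. Named genes are those of the rule and the 15 largest and 10 lowest differences at 100 CPM or more, among genes without overlap. They also include list genes called in the test libraries, a few T and NK genes, and the 3 largest changes each way between treatments. Other genes singled out were chosen after their values were seen. Of 26618 gene symbols, 10038 matched the reference name table. No sequences or coordinates were used. A gene withheld for evaluation is not reported here.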

Additional observations from a re-analysis of the deposited data

Results flagged for a closer look

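The uninjured TU library replicate 5 held 260 comparison cells where the other 5 libraries of its group held 16 to 54. Its gap to the nearest library was 0.844 of the range of the group, above Dixon's limit for 6 samples, which chance alone passes in about 1 group in 20.

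The difference between members and comparison cells itself differed between 2 dpa and mock for 33 of 673 genes (edgeR interaction term, 107 under 0.05 unadjusted), and for 0 of 673 between 0 dpa and mock (46 unadjusted). Among genes of the lists, the log2 difference of differences was 3.94 for tnfrsf9b, 3.57 for cd74b, 3.05 for cd74a, 2.91 for tnfb, 2.79 for mhc2dab, 2.64 for wasb, 2.61 for mhc2a, 2.53 for tnfrsf9a, 2.02 for arhgdig, 1.55 for pfn1, 1.1 for mcl1a, 1.06 for tmsb4x, 0.96 for dnajb1b, 0.88 for hsp70.3, 0.78 for hsp90aa1.2 and 0.65 for hsp70l. For cd74a (adjusted p = 7.7e-07) the pooled level was 2196 CPM in members and 4955 CPM in comparison cells of mock, and 724 CPM and 189 CPM at 2 dpa. For tnfrsf9a (adjusted p = 0.00175), a costimulatory receptor of activated T cells, it was 590 and 672 CPM in mock and 548 and 103 CPM at 2 dpa, so the comparison cells held the larger change. At 2 dpa, 61.7% to 76.7% of comparison cells and 43.8% to 65.2% of members held at least 2 UMIs of markers of other cell types, against 12.3% to 26.3% and 8.33% to 15.8% in mock. The part of these cells in the differences was not tested.

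Outside the called cells, 26 barcodes of the 3 uninjured mCherry+ libraries (15, 6 and 5) met the marker rule. Barcodes below the threshold had medians of 76 to 97 UMIs and carried trdc in 0.194% of cases.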

How the results depend on the processing

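The 59 genes called between members and comparison cells became 99 with DESeq2 size factors, 1170 with no filter (15 higher, 1155 lower), 12 without the deepest 5% of cells, 0 with a threshold of 3 marker UMIs (58 unadjusted), 1 after thinning to 400 UMIs, 2 without the replicate block of libraries, 1 against comparison cells with at least 3 ccl38 UMIs, 18 in mock alone, 25 in 0 dpa alone, 125 in 2 dpa alone, 34 without 2 dpa, 35 without TU, 0 without cells holding 2 UMIs of markers of other cells (15 unadjusted), 0 without pbxip1b in the panel, and 19 to 57 when 1 library was left out. With the 20-UMI filter, 120 became 21, 16, 4 and 60 without pbxip1b, without such cells, against ccl38 cells and without 2 dpa, and 60 to 134 with 1 library left out. With the default filter and comparison cells of under 3 ccl38 UMIs only, 60 genes were called, 53 of them among the 59. The 12 calls of 0 dpa against mock became 7 without the deepest cells, 2 when thinned, 4 in a fit of the 2 groups and 5 to 14 with 1 library left out (6 without mock replicate 2, 5 without 0 dpa replicate 3). The 43 of mock against uninjured (30 higher, 13 lower) became 114 without a filter (7 higher, 107 lower), 18 when thinned and 26 to 54 with 1 library left out (26 without uninjured mCherry+ replicate 2, 27 without its replicate 3 or mock replicate 3), and 64 in a fit of the 2 groups. The share difference 0 dpa minus mock turned to -1.57 at 250 UMIs and -0.217 over all called cells, and ran from -0.104 (without 0 dpa replicate 1) to 2.09 with 1 library left out. Mock minus uninjured turned to 1.92 and 5.02 when thinned to 400 and 250 UMIs and ran from -4.44 to -2.44 with 1 library left out. The number of members became 112 at 3 marker UMIs and 170 with trdc alone. Against ccl38 cells, si:ch211-214p16.1 turned to -0.35, srgn to -0.30, hsp90aa1.2 to -0.19, gzm3.3 to -0.22 and ifng1 to -0.09. Without a filter, srgn turned to -0.09, nfkbiaa to -0.22 and hsp90aa1.2 to -0.36 (adjusted p = 6.3e-06), and in 0 dpa alone srgn turned to -0.03. The causes were not tested. For single genes, 389 of the alternatives kept the direction and the side of the threshold, 127 lost the call and 9 turned.

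Replicate numbers are shared between groups, but deviations of same-numbered libraries correlated at -0.0642, 0.20 and -0.00488 (mock and 0 dpa) and -0.13, -0.219 and -0.0126 (uninjured and mock). These values gave no sign of pairing by number, but so few pairs of small sums cannot exclude it. With the number as a replicate block, 11 genes were called between 0 dpa and mock and 42 between mock and uninjured. The share tests then flipped the signs of the 3 differences between same-numbered libraries. This exact sign-flip test gave p = 0.5 and p = 0.25, and 0.25 is the smallest p that 3 differences can give. Not run were the test in TU libraries alone, where 1 library had enough members, and the threshold of 3 marker UMIs between treatments. At 12181 to 57115 UMIs per member sum, a gene at 20 CPM gives at most about 1 UMI a library, so low genes limit every count above.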

Other observations

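Immunoglobulin transcripts in members of the libraries not used by the rule rested on 1 cell. Of 987 UMIs of immunoglobulin genes in members of 0 dpa replicate 1, 982 were in a single cell, which carried 687 of all 697 member UMIs of ighv1-4 and 242 of 243 of CU571382.1. In the same way all 43 UMIs of mdka were in 1 cell of 2 dpa replicate 3 and 18 of 20 UMIs of plxna4 in 1 cell of mock replicate 3, although edgeR called these genes higher in members with the 20-UMI filter (ighv1-4 2.65, mdka 4.04, plxna4 3.44).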
